A study of Mus musculus with 15 samples.

Results

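The addition of agonist CD40 Ab to MEK inhibition was examined by comparing whole-tumor transcriptomes of 4 mice given the MEKi/CD40 Ab combination with those of 3 mice given MEKi and a control IgG, that is, 7 of the 15 arrays of the series. Every array measured 1 PDA30364 tumor, a mouse pancreatic ductal adenocarcinoma (PDA) line. The other arrays, 4 from mice given vehicle with control IgG (control) and 4 from mice given vehicle with CD40 Ab, placed the levels, gave the antibody effect without inhibitor and entered the choice of probe sets. Each gene was represented by the probe set that carried exactly 1 symbol and had the highest mean signal over all 15 arrays, which gave 18193 genes, and all values are log2 signals, on which a difference of 1 is a 2-fold change.

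All mice were C57BL/6-Ly5.1, 6 to 12 weeks old, and carried a graft of 500000 PDA30364 cells under the skin of the flank. The MEKi and combination groups both received the MEK inhibitor GDC-0623 daily at 30 mg/kg for about 2 weeks, so the comparison holds the inhibitor constant and varies the antibody. Antibody or control IgG was injected on days 3, 5 and 7 of treatment, with a last dose 1 day before the tumors were taken at day 26 after inoculation. The model is 1 cell line grown outside the pancreas, and each sample was a piece of whole tumor, so that tumor cells, stroma, immune cells and adjoining host tissue were measured together. In such material fewer cells of a type and less RNA per cell cannot be told apart.

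MEK phosphorylates and activates ERK, the last kinase of a growth factor pathway, and ERK in turn raises growth genes together with feedback inhibitors such as the dual specificity phosphatases (Dusp) and Sprouty proteins. CD40 is a TNF receptor family member on dendritic cells, macrophages and B cells. Its ligation activates NF-kB and licenses dendritic cells to present antigen and to prime T cells.

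Krt19 and Cdh1, used as markers of ductal tumor cells, were high on all 7 arrays. The epithelial keratin Krt19 measured 13.20, 13.59 and 13.46 in MEKi tumors and 13.20, 13.14, 13.32 and 13.35 in combination tumors, and the adhesion gene Cdh1 lay between 11.99 and 12.19 on all 7 arrays. Array medians over the series ran from 5.16 to 5.24. Of 7 technical measures from the control probe sets, the Gapdh controls stood 0.35 higher in the combination group (exact permutation test over 35 splits, two-sided, p = 0.0286, the smallest p these group sizes allow; adjusted p = 0.2), and the others gave p from 0.143 to 0.914. All 4 combination tumors bore numbers under 10000 and all 3 MEKi tumors numbers from 10000 on, so tumor number series and treatment cannot be told apart in this comparison. MEKi replicate 1 stood apart from the other MEKi tumors in skeletal muscle genes, with a list level of 9.80 against 7.17 and 7.22, and in B cell genes, with 6.66 against 4.56 and 4.70, and the lists that moved most without it are given with both values.

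In the combination tumors 251 of the 18193 genes were higher than in MEKi tumors (1.38%) and 482 were lower (2.65%) at an adjusted p under 0.05 in limma, which makes 4.03% in all. Over probe sets the count was 1264 of 45037 (2.81%), with 457 higher and 807 lower, and 7917 had an unadjusted p under 0.05. Falls were also the larger changes, as 234 genes fell and 60 rose by at least 2-fold. The median log2 FC over all genes was 0.01. The shares of 1.38% and 2.65% are the background for all list counts below, and a single called gene says little about its list. Combination and MEKi arrays did not overlap at any of the 733 called genes, whereas over all genes the combination arrays lay wholly above for 8.77% and wholly below for 10.8%.

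The calls depended on how many arrays were left. With 1 array omitted in turn, 51 of the 251 risers and 181 of the 482 fallers were called in all 7 fits. Without MEKi replicate 1 the counts grew to 414 genes higher and 764 lower (2.28% and 4.2%), and without MEKi replicate 3 the 1264 probe sets became 431. MEKi tumors varied more among themselves, since 206 genes spanned over 2 log2 units in the 3 MEKi arrays and 68 did so in the 4 combination arrays.

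**Figure D1:**
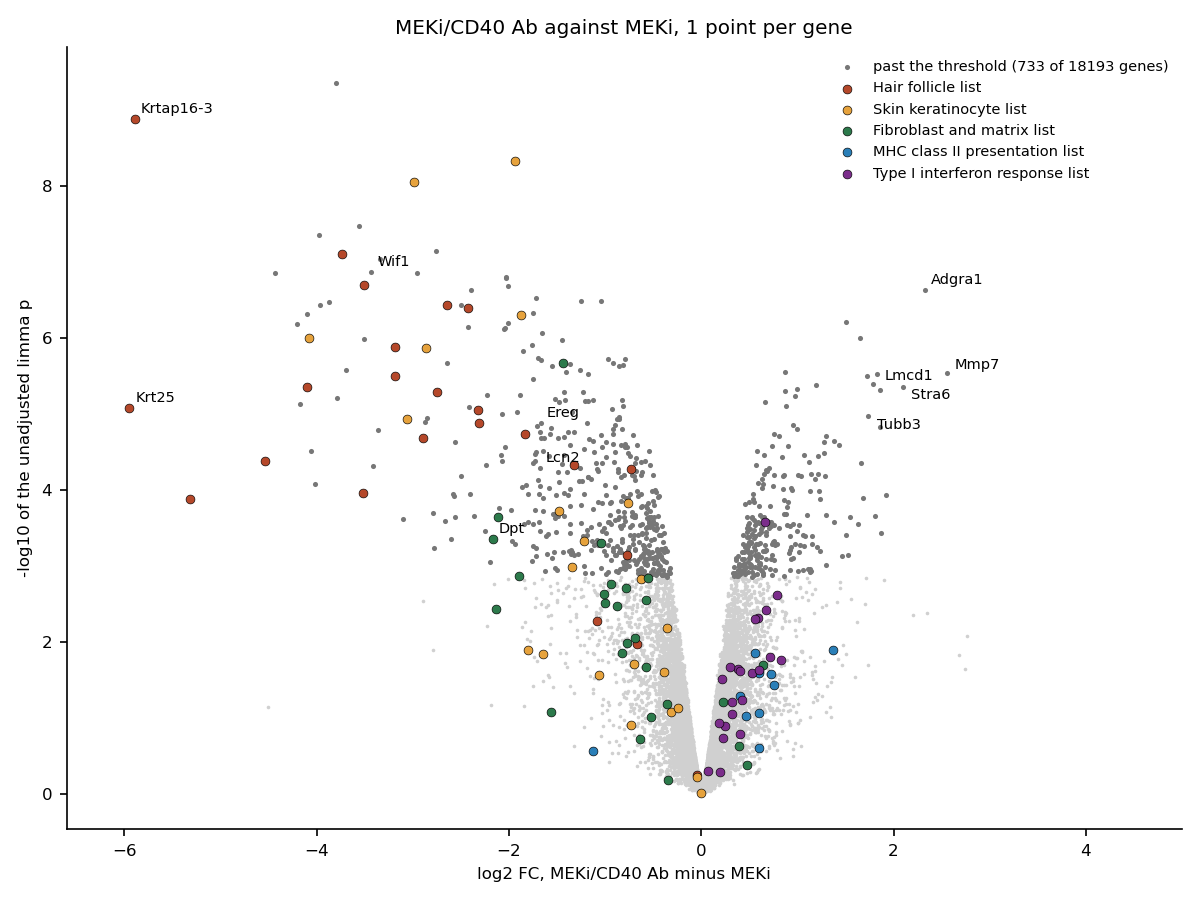
Log2 FC (x axis, combination minus MEKi) and -log10 of the unadjusted limma p (y axis) for 18193 genes, 1 point per gene. Grey points mark the 733 called genes, and the coloured points show that hair follicle and skin keratinocyte genes lay on the falling side while MHC class II and type I interferon genes lay mostly right of 0 below the called range.

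The largest rise was that of Mmp7, matrilysin, a secreted protease of epithelial tumors. Mmp7 measured 7.48, 6.79 and 7.65 in MEKi tumors and 9.66, 9.98, 10.17 and 9.63 in combination tumors. All combination tumors were higher than all MEKi tumors, with a log2 FC of 2.55 ± 0.22 (SE; adjusted p = 0.00158). Mean levels were 5.81 in control and 6.79 in CD40 Ab tumors, so both groups without inhibitor lay under the MEKi mean of 7.31. The difference between the CD40 Ab effect with and without inhibitor was 1.58 and missed the threshold (adjusted p = 0.105). A RefSeq promoter of Mmp7 (GRCm38.p6, chr9:7691840-7692139, plus strand, 250 bases before to 50 after the start) is shown because Mmp7 rose most. Capitals mark a match to the AP-1 motif (TGANTCA) 63 bases before the start and TATAAA 123 and 26 bases before it. Another RefSeq promoter of Mmp7 (chr9:7692091-7692390) had no match to any motif searched. On either strand TGANTCA occurred in 7.92% of the 265 promoters matched to 200 of the 251 risers. It occurred in 6.38% of the 18109 promoters of tested genes and in 7.81% of all 32851 promoters of this length.
Mmp7: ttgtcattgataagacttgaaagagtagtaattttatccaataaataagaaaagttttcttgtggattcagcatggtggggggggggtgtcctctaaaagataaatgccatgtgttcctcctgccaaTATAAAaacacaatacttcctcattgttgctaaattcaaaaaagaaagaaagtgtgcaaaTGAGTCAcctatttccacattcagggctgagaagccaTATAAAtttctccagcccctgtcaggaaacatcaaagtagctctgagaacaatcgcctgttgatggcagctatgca

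Adgra1, an adhesion G protein-coupled receptor, measured 5.82, 5.59 and 6.09 in MEKi tumors and 8.40, 8.04, 7.97 and 8.22 in combination tumors. These groups did not overlap (log2 FC 2.32 ± 0.15, adjusted p = 0.000407), and the control mean of 5.35 and CD40 Ab mean of 5.74 were as low as in MEKi tumors. The urate and phosphate transporter Slc17a1 (1.87) and the LIM domain protein Lmcd1 (1.82) likewise had control, CD40 Ab and MEKi means close together and rose with the combination.

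Other leading risers were low in MEKi tumors and near their control level in combination tumors. Stra6, the receptor for retinol uptake, measured 6.59, 6.03 and 5.93 under MEKi and 8.37, 8.21, 8.57 and 7.96 under the combination, with a control mean of 7.89. Sema4f, a semaphorin, had a mean of 8.76 in control tumors and rose by 1.86 over MEKi, and Spon2, a secreted matrix protein, had 8.01 and rose by 1.85. Tfr2 (transferrin receptor 2, 1.81) and the junctional protein Myzap (1.79) had the same order of levels. Apol6, an apolipoprotein L family gene, differed from these in that CD40 Ab without inhibitor gave a log2 FC of 1.63 and with inhibitor 1.92, and the difference of 0.29 missed the threshold (adjusted p = 0.812). Of the 10 largest risers, Apol6 lost its call without MEKi replicate 3 (adjusted p = 0.067), and Slc17a1 and Tfr2 lost theirs in 5 and 4 of the 7 fits with 1 array omitted, at adjusted p up to 0.101 and 0.088. In the series fit, a fit of all 15 arrays with tumor number series as a covariate, Sema4f missed the threshold (1.32, adjusted p = 0.0576). The rest of these 10 passed.

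**Figure D2:**
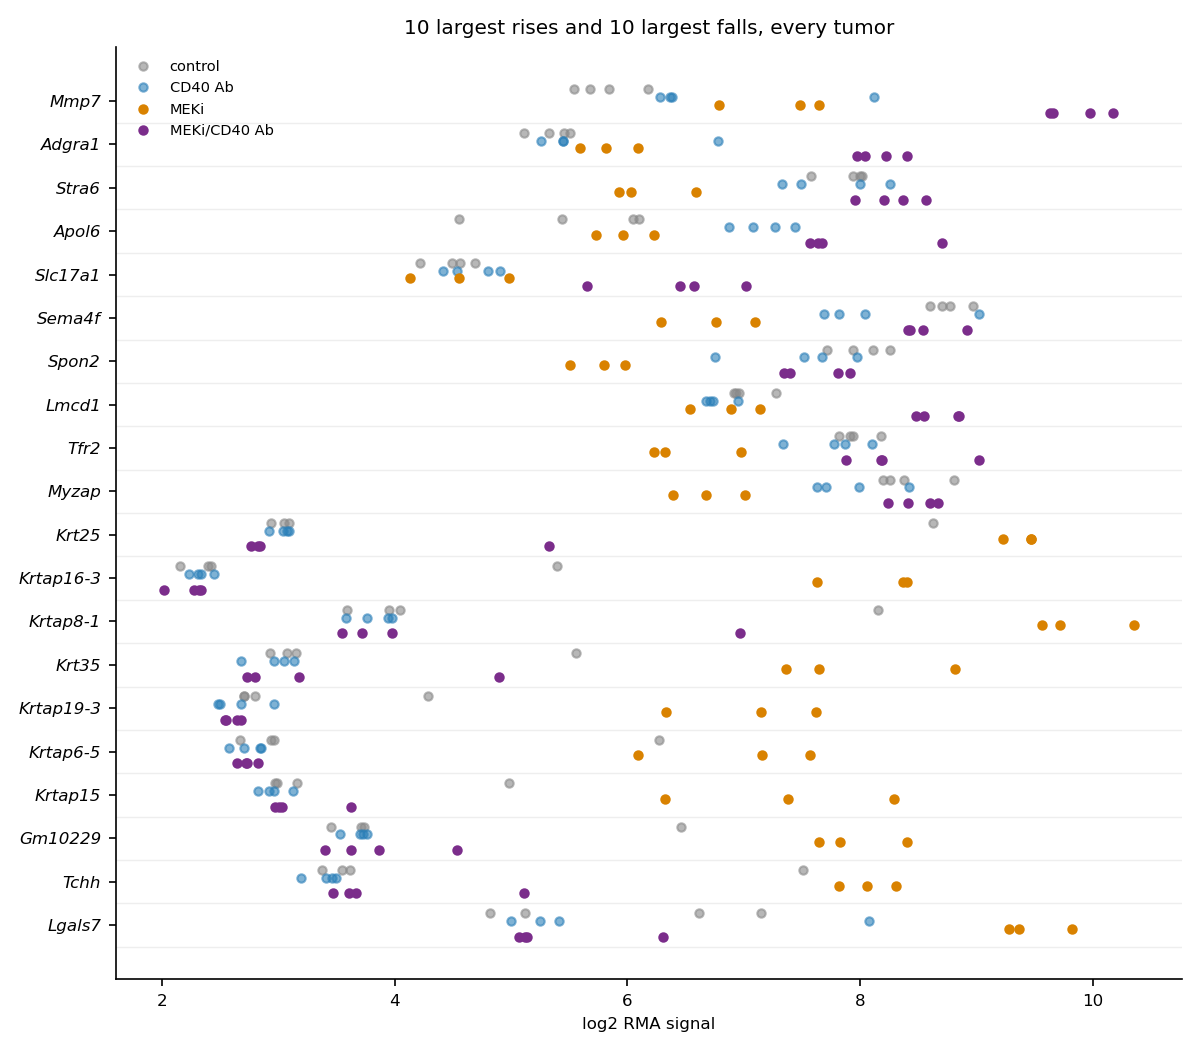
Log2 signal (x axis) of every tumor for the 10 leading risers (top) and 10 leading fallers (bottom) of combination against MEKi, with 1 dot per array coloured by group. Stra6, Sema4f and Spon2 had control means of 7.89, 8.76 and 8.01, whereas the keratin genes at the bottom were high in the 3 MEKi tumors and in 1 control tumor.

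The largest falls were in hair genes. Of 23 measured hair follicle genes 20 fell and none rose, against 2.65% and 1.38% of all genes, with a median log2 FC of -2.75. The list's mean level was 6.88, 7.16 and 6.86 in MEKi tumors and 4.73, 3.94, 3.99 and 3.94 in combination tumors. Combination replicate 1 was the highest of its group, and the groups did not overlap. Control tumors measured 4.10, 4.11, 4.15 and 6.05, so control replicate 4 was also high, and CD40 Ab tumors lay between 4.06 and 4.15. With 1 array omitted, 17 to 21 members were called.

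Krtap16-3, a keratin-associated protein of the hair shaft, measured 7.63, 8.40 and 8.37 in MEKi tumors and 2.28, 2.34, 2.32 and 2.02 in combination tumors. The groups were widely separated (log2 FC -5.89 ± 0.19, adjusted p = 2.96e-05). Krt25, an inner root sheath keratin, measured 9.23, 9.47 and 9.47 against 5.33, 2.77, 2.83 and 2.84, again with combination replicate 1 above its group (-5.95 ± 0.59, adjusted p = 0.00309). Krtap8-1 (-5.32), the cortex keratin Krt35 (-4.54), the inner root sheath protein trichohyalin (Tchh, -4.10) and Krtap19-3 (-4.43) followed. Krtap8-1 lost its call without MEKi replicate 3 or combination replicate 2 (adjusted p up to 0.0626), and the others named here were called in all 7 fits. In the series fit Krt25 (-3.61, adjusted p = 0.174), Krtap8-1 (-3.65, adjusted p = 0.152) and Tchh (-2.34, adjusted p = 0.193) missed the threshold. Krtap16-3, Krt35 and Krtap19-3 passed it, and 11 genes of the hair follicle list fell there.

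Over the whole gene families, chosen after the values were seen, 24 of 38 Krtap genes and 22 of 48 Krt genes fell and none rose, with medians of -1.77 and -0.78. Over all genes 2.65% fell and 1.38% rose. Krtap genes lie in clusters, and 18 of 20 on chromosome 16 fell, 6 of 10 on chromosome 11 and none of 5 on chromosome 7. Of the keratins, 13 of 24 on chromosome 11 and 9 of 24 on chromosome 15 fell. Members of these families are close in sequence and probe sets may cross-hybridize, so single members are uncertain. Tumor keratins did not pass the test, with log2 FCs of -0.29 for Krt8, -0.28 for Krt18, -0.25 for Krt7 and -0.16 for Krt19. Of 21 epithelial tumor cell genes 1 rose, Mmp7, and none fell (median -0.16), whereas 5 fell without MEKi replicate 1 (median -0.26).

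RefSeq promoters (GRCm38.p6, 250 bases before to 50 after the start) of a pair of chromosome 16 fallers, Krtap16-3 (chr16:88962824-88963123, minus strand) and Krtap19-3 (chr16:88877989-88878288, minus strand), are shown because these genes fell together. Capitals mark TATAAA or its reverse complement TTTATA, found in Krtap16-3 30 and 102 bases before the start, and the LEF/TCF core CTTTGAA or its reverse complement TTCAAAG, found 246 bases before the start in Krtap16-3 and 241 and 183 bases before it in Krtap19-3. Both motifs were chosen after the values were seen. Of other chromosome 16 fallers, Krtap15 also had CTTTGAA, whereas Krtap8-1, Krtap6-5, Krtap19-5 and Krtap19-2 did not.
Krtap16-3: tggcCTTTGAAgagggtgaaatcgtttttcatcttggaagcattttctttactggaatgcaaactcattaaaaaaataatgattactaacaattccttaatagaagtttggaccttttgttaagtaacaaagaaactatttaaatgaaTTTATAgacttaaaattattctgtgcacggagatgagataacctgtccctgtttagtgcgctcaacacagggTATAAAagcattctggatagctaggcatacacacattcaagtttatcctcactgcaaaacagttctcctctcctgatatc
Krtap19-3: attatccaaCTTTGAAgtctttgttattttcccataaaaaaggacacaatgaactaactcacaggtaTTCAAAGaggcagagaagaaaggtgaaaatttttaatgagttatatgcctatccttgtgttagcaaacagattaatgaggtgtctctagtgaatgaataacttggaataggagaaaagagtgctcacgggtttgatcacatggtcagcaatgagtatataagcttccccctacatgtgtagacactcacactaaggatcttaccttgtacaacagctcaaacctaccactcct
On either strand TATAAA occurred in 28 of 37 promoters of called Krt and Krtap genes (75.7%; 37 of 46 genes matched), in 19 of 32 promoters of those not called (59.4%; 31 of 40 matched) and in 13.6% of all promoters. CTTTGAA occurred in 11 of the 37 (29.7%), in 0 of the 32 and in 5.14% of all promoters. A match describes letters in the window and is no evidence of binding.

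Skin keratinocyte genes fell alongside, 10 of 22 with none rising (median -1.14), where 2.65% of all genes fell. The list level was 6.41, 7.16 and 6.89 in MEKi tumors and 5.59, 5.36, 5.50 and 5.45 in combination tumors, without overlap. CD40 Ab replicate 3, at 6.64, was within the MEKi range. The basal keratin Krt5 fell by 3.06, galectin-7 (Lgals7), a lectin of stratified epithelia, by 4.08, the desmosomal cadherin Dsc1 by 2.98 and Trp63, the basal epidermal transcription factor, by 1.87. Krt5, Lgals7 and Dsc1 were called in all 7 fits with 1 array omitted. In the series fit Krt5 (-2.04, adjusted p = 0.0894) and Lgals7 (-2.46, adjusted p = 0.122) missed the threshold. Dsc1 passed it (-1.925, adjusted p = 0.0454), and 3 genes of the list fell there. Between 6 and 14 members were called with 1 array omitted, the lowest without MEKi replicate 3, combination replicate 2 or 4 and the highest without MEKi replicate 1. The melanin enzymes Dct (-2.03, adjusted p = 0.000335) and Tyrp1 (-1.55, adjusted p = 0.00148) were the only ones called of 8 pigment cell genes chosen after the values were seen. How far skin or hair carried with the tumor piece contributes to these falls was not tested.

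**Figure D3:**
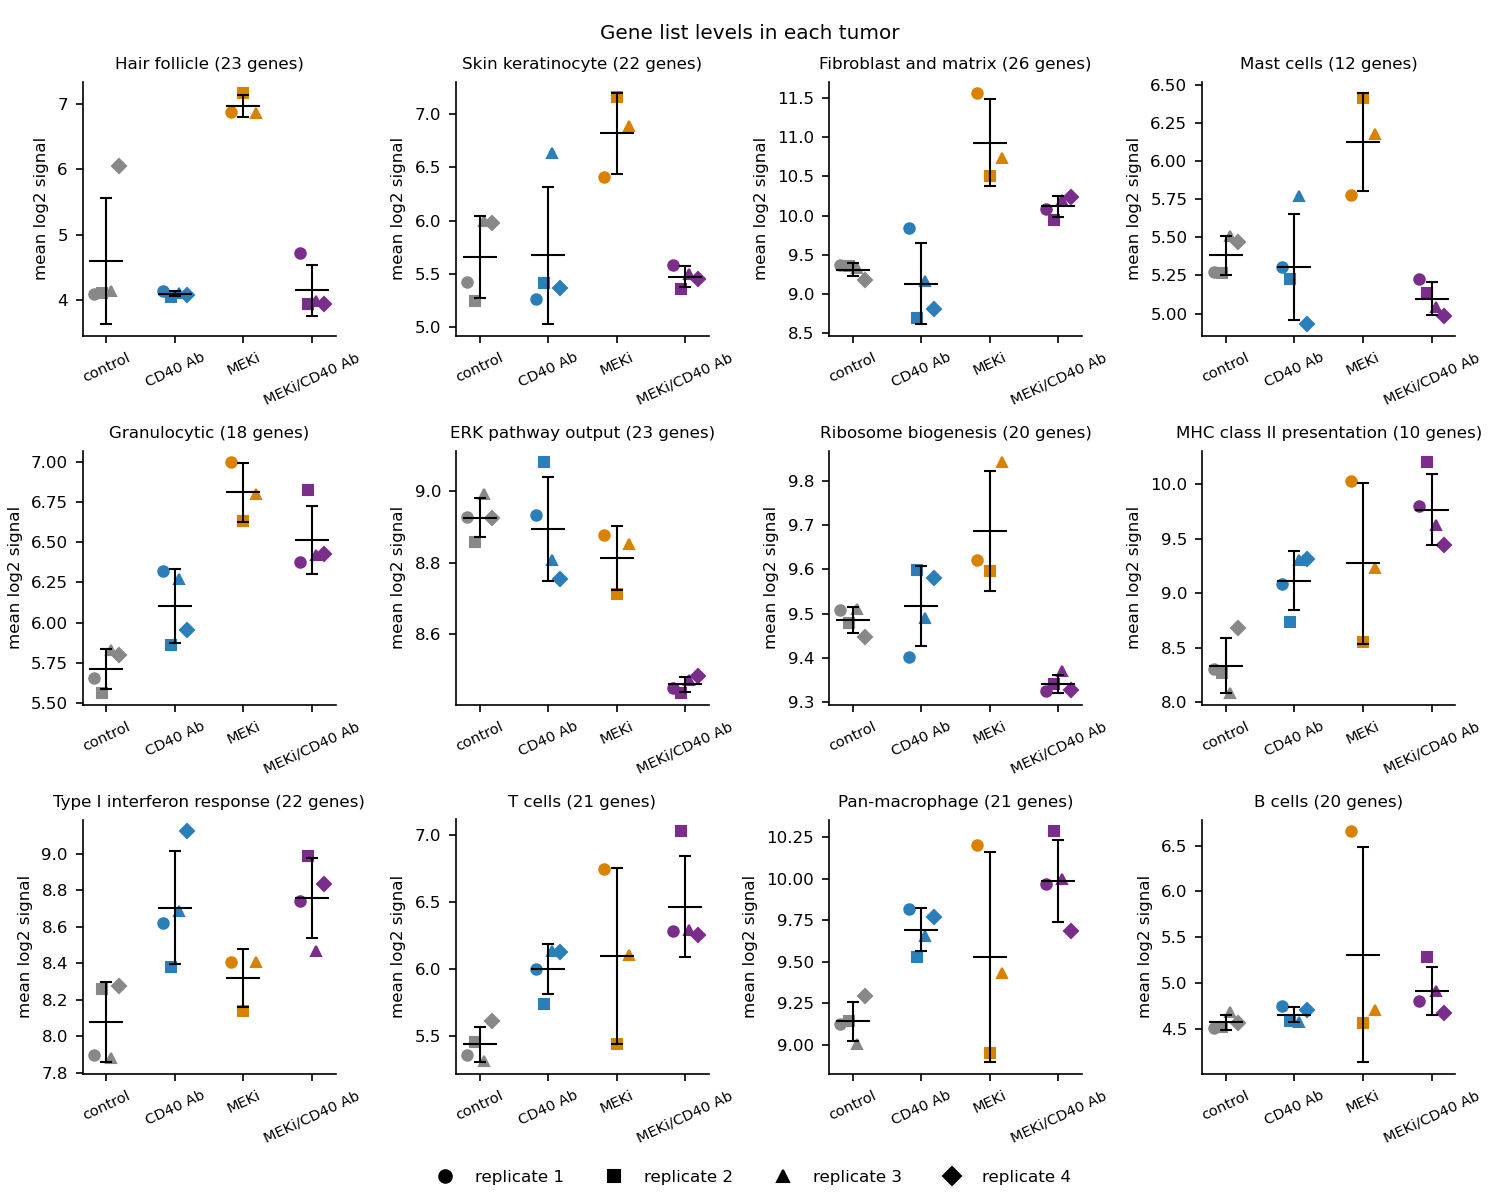
Mean log2 signal of 12 gene lists (y axes) in every tumor of the 4 groups, marker shape giving the replicate number, with bars for the group mean ± SD. Hair follicle, skin keratinocyte, fibroblast, mast cell, ERK output and ribosome biogenesis levels of the combination tumors lay below all 3 MEKi tumors, while MEKi replicate 1 was the highest MEKi tumor in B cell, T cell and macrophage genes.

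Of 26 fibroblast and matrix genes 5 fell, none rose and 21 did not pass the test (median -0.78, and -0.50 without MEKi replicate 1). Over all genes 2.65% fell. List levels of 11.56, 10.50 and 10.73 in MEKi tumors compared with 10.09, 9.94, 10.20 and 10.24 in combination tumors, and control tumors lay lower still at 9.18 to 9.36. The fallers were the small proteoglycans Dcn (-1.90) and Lum (-2.12), the matrix protein Dpt (-2.17), the fibroblast receptor Pdgfra (-1.44) and Col6a3 (-1.04). Dpt measured 11.66, 10.42 and 10.56 in MEKi tumors and 8.21, 8.51, 9.54 and 8.59 in combination tumors, so combination replicate 3 was its highest yet stayed under every MEKi tumor. With 1 array omitted between 1 and 6 members fell, and only 1 without MEKi replicate 3 or combination replicate 1 or 2. Without MEKi replicate 1, where 6 fell, 1 member rose. Dcn lost its call in 6 of the 7 fits, with an adjusted p up to 0.142.

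The major fibrillar collagen gene Col1a1 measured 12.67, 11.81 and 11.99 against 11.10, 10.80, 11.14 and 11.59 (log2 FC -1.0 ± 0.24, adjusted p = 0.073), which missed the threshold although the groups did not overlap. Of 42 collagen chain genes, a group chosen after the values were seen, 5 fell (Col13a1, Col16a1, Col17a1, Col24a1 and Col6a3) and none rose, with a median of -0.06. Ogn, which encodes the proteoglycan osteoglycin, had a log2 FC of -1.56 ± 0.80 (adjusted p = 0.366) and rested on MEKi replicate 1 at 10.65 against 6.74 and 7.59, without which it was -0.40.

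Of 23 genes listed as ERK pathway output 18 had a negative and 5 a positive log2 FC, with a median of -0.30. The combination arrays lay wholly below the MEKi arrays for 13 (10.8% of all genes did), and 2 were called as fallers (2.65% of all genes were). List levels were 8.88, 8.71 and 8.85 in MEKi tumors and 8.45, 8.44, 8.47 and 8.48 in combination tumors. All combination tumors were lower, by more than the spread within either group, and control tumors measured 8.86 to 8.99. Ereg, an EGF receptor ligand induced by ERK, measured 7.44, 7.51 and 8.17 against 6.16, 5.85, 6.04 and 6.10 (-1.67 ± 0.18, adjusted p = 0.00398). The phosphatase Dusp5 measured 8.39, 7.86 and 8.20 against 7.28, 7.37, 7.27 and 7.36 (-0.83 ± 0.12, adjusted p = 0.0151). For MEKi minus control the list median was -0.05, and Ereg (0.32) and Dusp5 (0.27) did not pass the test. Whether the list reports ERK activity in these tumors was not tested.

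Dusp5 lost its call without MEKi replicate 3 or combination replicate 2 or 3 (adjusted p up to 0.0728), and the list count ran from 1 to 5 with 1 array omitted, 5 without MEKi replicate 2. The Sprouty gene Spry4 (-0.77, adjusted p = 0.0556) and the ERK phosphatase Dusp6 (-0.43, adjusted p = 0.176) missed the threshold, as did Etv4 (-0.20, adjusted p = 0.303), and the cyclin Ccnd1 had a log2 FC of 0.00 ± 0.07. Among 6 EGF receptor ligands chosen after the values were seen, Btc (-1.68) and Epgn (-0.59) fell with Ereg. Btc measured 7.14, 8.30 and 8.14 against 6.13, 5.86, 6.41 and 6.31 and was called in 2 of the 7 fits.

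All 20 ribosome biogenesis genes had negative log2 FCs and 16 did not overlap (10.8% of all genes lay wholly below), with a median of -0.36. Of them 3 were called, where 2.65% of all genes fell. These were Polr1b, a subunit of RNA polymerase I (-0.58, adjusted p = 0.0073), and the processing factors Rrp12 (-0.66) and Nop16 (-0.49). List levels were 9.62, 9.60 and 9.84 against 9.33, 9.34, 9.37 and 9.33, and the combination tumors were also below the 4 control tumors, at 9.45 to 9.51. Polr1b was called in all 7 fits, Rrp12 in 2 and Nop16 in 1.

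Among granulocytic genes 3 of 18 fell (median -0.51), where 2.65% of all genes fell. Lcn2, the iron-scavenging lipocalin of neutrophils and inflamed epithelium, measured 12.10, 11.97 and 11.98 in MEKi tumors and 10.05, 10.46, 9.94 and 10.90 in combination tumors. The groups were clearly separated (-1.68 ± 0.22, adjusted p = 0.00819), and both lay over the control mean of 8.61. In the series fit Lcn2 missed the threshold (-1.08, adjusted p = 0.119), as did every gene of the list. The alarmin S100a8 fell by 1.36 and the decoy receptor Il1r2 by 0.82, and S100a9 had a log2 FC of -1.39 (adjusted p = 0.0565). Combination replicate 2 had a list level of 6.83, within the MEKi range of 6.63 to 7.00, against 6.38 to 6.43 in the others of its group. The number of fallers was 1 in 5 of the fits with 1 array omitted and 8 without MEKi replicate 2. Without combination replicate 3, 1 gene of the list rose.

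Mast cell genes were all lower, 12 of 12, and 3 fell, where 2.65% of all genes fell. These were the mast cell proteases Cpa3 (-2.49) and Cma1 (-2.41) and the IgE receptor chain Fcer1a (-2.41). Cma1 measured 6.98, 8.05 and 7.79 against 5.44, 5.11, 5.24 and 4.98 and was called in all 7 fits, while Cpa3 lost its call without MEKi replicate 3 (adjusted p = 0.0559) and Fcer1a without MEKi replicate 3 or combination replicate 2. The list count ran from 1 without MEKi replicate 3 to 6 without MEKi replicate 1. In the series fit Cma1 (-1.86, adjusted p = 0.109), Cpa3 (adjusted p = 0.2) and Fcer1a (adjusted p = 0.0735) missed the threshold. Skin list levels in these tumors moved in the same direction, and their part in the mast cell result was not tested.

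Chemokines split. Ccl20, which attracts CCR6-bearing cells, measured 10.27, 9.73 and 10.09 in MEKi tumors and 8.60, 8.28, 7.41 and 8.62 in combination tumors (-1.80, adjusted p = 0.0211), and the neutrophil attractants Cxcl1 (-0.99) and Cxcl5 (-0.89) also fell. The myeloid CC chemokines Ccl6 and Ccl9 rose by 1.51 and 1.06. Ccl6 measured 8.65, 7.72 and 8.22 against 9.31, 9.58, 10.21 and 9.71, so both directions were without overlap. These were 5 of 28 measured chemokines (median 0.00), where 4.03% of all genes were called in either direction. None was called without MEKi replicate 3 or without combination replicate 2, and 4 rose and 3 fell without MEKi replicate 1. The interleukin-1 receptors Il1r1 (-0.59) and Il1r2 fell as 2 of 23 interleukin and colony stimulating factor genes, 4 being called without MEKi replicate 1 or 2 and 0 without MEKi replicate 3 or any 1 combination replicate.

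Antigen presentation and interferon lists had positive medians, and 2 single genes of the interferon lists passed the test. Of 10 MHC class II genes none was called (median 0.60), with list levels of 10.03, 8.55 and 9.23 in MEKi tumors and 9.80, 10.20, 9.63 and 9.44 in combination tumors. MEKi replicate 1 lay inside the combination range, so the groups overlapped. Without MEKi replicate 1 the median was 0.87 with 1 gene called, and without MEKi replicate 2 it was 0.30. The class II transactivator Ciita had a log2 FC of 0.56 ± 0.18 (adjusted p = 0.158), H2-Aa 0.47 ± 0.25 (adjusted p = 0.385) and the invariant chain Cd74 0.40 ± 0.17 (adjusted p = 0.291). Of 17 MHC class I genes none was called either (median 0.26), with Tap1, a peptide transporter, at 0.49 ± 0.29.

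All 22 type I interferon response genes were higher (median 0.40), 8 of them without overlap, where 8.77% of all genes lay wholly above. Only 1 was called, the oligoadenylate synthetase-like gene Oasl1 (0.66 ± 0.11, adjusted p = 0.021), where 1.38% of all genes rose. Oasl1 was called in 2 of the 7 fits, and 3 genes of the list were called without MEKi replicate 1. Among 21 interferon gamma response genes 20 were higher (median 0.35) and the receptor chain Ifngr1 was called (0.36 ± 0.07, adjusted p = 0.0364; 1 of the 7 fits). The chemokines Cxcl9 (0.56 ± 0.26) and Cxcl10 (0.04 ± 0.34) missed the threshold, and Ifng itself had 0.65 ± 0.41 (adjusted p = 0.469). In tumors without inhibitor, CD40 Ab gave medians of 0.93 for MHC class II, 0.97 for interferon gamma response and 0.61 for type I interferon genes.

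T cell genes had no call among 21 (median 0.34). Their levels were 6.75, 5.44 and 6.11 in MEKi tumors and 6.29, 7.03, 6.29 and 6.25 in combination tumors, so the groups overlapped and combination replicate 2 was the highest of all. The median was 0.72 without MEKi replicate 1 and 0.07 without MEKi replicate 2, where 1 gene fell. Cd8a measured 6.76, 5.36 and 6.45 against 6.67, 7.60, 6.79 and 6.63 (0.73 ± 0.36, adjusted p = 0.345), Cd4 had 0.16 ± 0.11 and Foxp3, the factor of regulatory T cells, 0.01 ± 0.12. The effector protease Gzmb had 0.57 ± 0.34 (adjusted p = 0.453), and of 19 cytotoxic genes only Gzmc was called, with a fall of 1.14 (2 of the 7 fits), while 2 rose without MEKi replicate 1. Of 12 immune checkpoint genes none was called (median 0.39), with the receptor PD-1 (Pdcd1) at 1.11 ± 0.26 (adjusted p = 0.0697; 5.07, 4.41 and 4.95 against 5.55, 6.45, 5.52 and 6.16) and its ligand Cd274 at 0.50 ± 0.26.

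The costimulatory receptor Tnfrsf9 (4-1BB) rose by 0.94 ± 0.13 (adjusted p = 0.0124), from 7.34, 7.51 and 7.47 to 8.12, 8.28, 8.44 and 8.68, the only one called of 16 costimulation genes (median 0.14, and 0.35 without MEKi replicate 1), and lost its call without MEKi replicate 3 (adjusted p = 0.058). Its control mean was 8.26. Granzyme-inhibiting and related serpins, a group of 5 chosen after the values were seen, rose in 4 cases, where 1.38% of all genes rose. Serpinb9, the mouse inhibitor of granzyme B, measured 9.59, 9.20 and 9.68 against 10.72, 10.78, 10.33 and 10.70 (1.14 ± 0.15, adjusted p = 0.00923), and Serpinb1b (1.66), Serpinb9b (1.14) and Serpinb6b (0.81) rose with it. Over the 18 Serpinb family members the median was 0.05 and the same 4 were called.

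Macrophage genes depended on single MEKi tumors. Of 21 pan-macrophage genes 1 was called, Cd68 (0.96 ± 0.16, adjusted p = 0.0215), with a median of 0.44. Without MEKi replicate 1 the count was 10 and the median 0.89, and without MEKi replicate 2 the median was 0.11. List levels were 10.20, 8.95 and 9.43 in MEKi tumors and 9.97, 10.29, 10.00 and 9.68 in combination tumors, so that MEKi replicate 1 overlapped with the combination group. Without any 1 of the other 6 arrays the count was 0. Of 11 complement genes 1 was called, Cfi (1.13), which lost its call without every array but combination replicate 3. Without MEKi replicate 1 the complement count was 6, not including Cfi, and it was 0 without MEKi replicate 2 or 3 or combination replicate 1, 2 or 4. Neither the M1-like (14 genes, median 0.04) nor the M2-like list (19 genes, median 0.26) had a call. The M1-like median was -0.19 with 1 faller without MEKi replicate 2, and the M2-like median was 0.03 without combination replicate 3, with 1 call without MEKi replicate 1. Nos2 had 0.03 ± 0.14, Mrc1 -0.03 ± 0.29 and Arg1 1.42 ± 0.47 (adjusted p = 0.171; 6.87, 8.68 and 8.69 against 9.18, 8.94, 9.99 and 9.90).

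The receptor Cd40 itself measured 6.89, 6.43 and 6.78 against 6.65, 7.36, 6.86 and 6.10 (0.04 ± 0.27, adjusted p = 0.961), and none of 20 CD40 and NF-kB pathway genes was called (median 0.03). Dendritic cell genes had 0 of 16 called (median 0.31), and 2 rose without MEKi replicate 1. Of 12 lymph node and lymphoid chemokine genes 1 fell, Coch (cochlin), at 4.41, 5.98 and 6.58 against 2.89, 2.84, 2.78 and 2.94 (-2.79, adjusted p = 0.0187; 1 of the 7 fits), the latter at the control mean of 2.89. Of 20 B cell genes the kinase Blk was called (1.13, adjusted p = 0.0462; 1 of the 7 fits), while the list median was -0.47 with all arrays and 0.15 without MEKi replicate 1. No plasma cell gene of 15 was called, yet the spread was wide. Ighm measured 8.21, 5.71 and 6.50 against 7.43, 10.82, 10.46 and 9.22 (2.68 ± 0.87, adjusted p = 0.162) and Jchain 4.28, 2.42 and 3.11 against 4.14, 7.48, 7.00 and 5.53 (2.77 ± 0.80, adjusted p = 0.122), with combination replicate 1 overlapping the MEKi group in both.

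**Figure D4:**
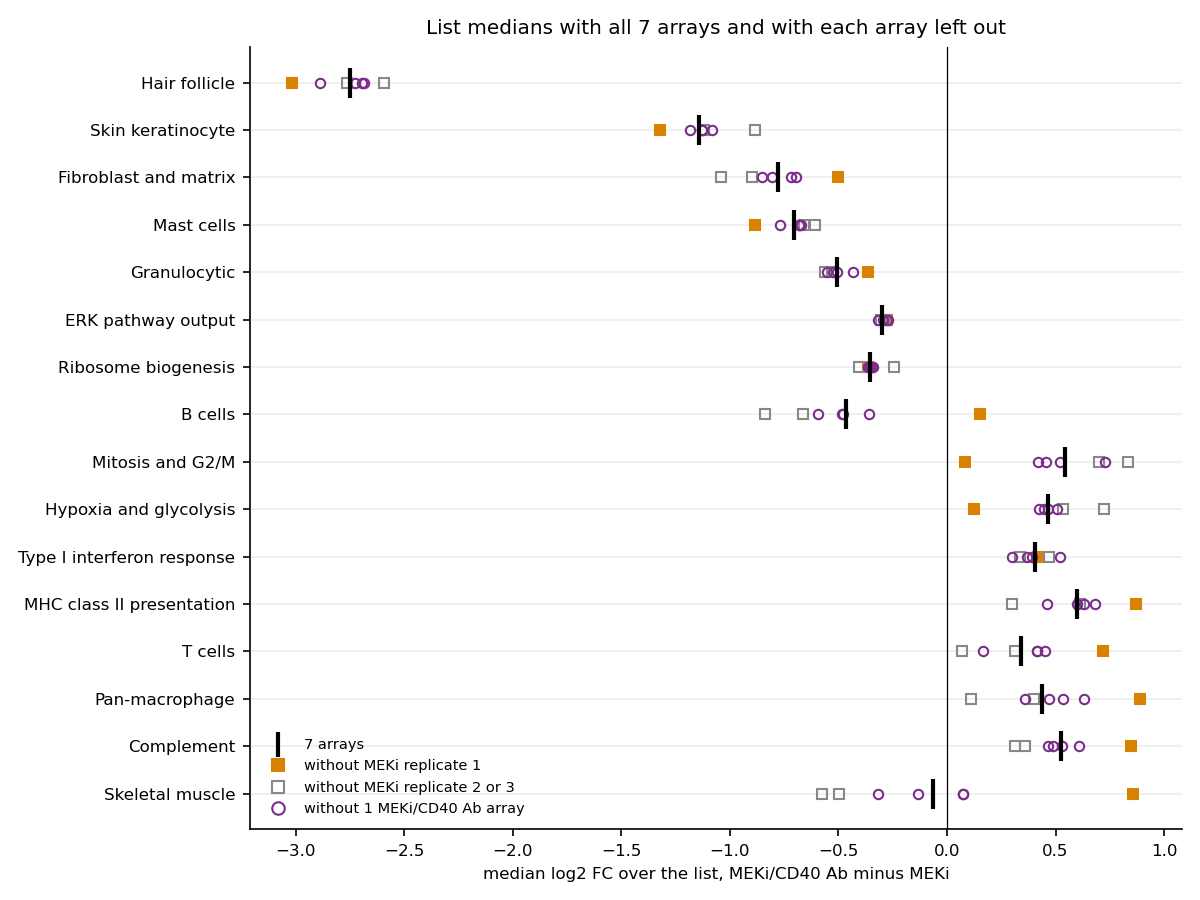
Median log2 FC (x axis, combination minus MEKi) of 16 gene lists with all 7 arrays (black bar) and with each array omitted in turn. Hair follicle medians stayed between -3.02 and -2.60, whereas the B cell median turned from -0.47 to 0.15 without MEKi replicate 1 and the pan-macrophage median of 0.44 became 0.89 without MEKi replicate 1 and 0.11 without MEKi replicate 2.

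Neuron-type genes rose in 3 of 17 cases and fell in 1, where 1.38% of all genes rose and 2.65% fell. The list was chosen with earlier results of these data known, and its median for MEKi minus control was -1.49. Rises over the same MEKi arrays were thus favoured in advance, and the count is no independent support. Tubb3, a neuronal beta-tubulin, measured 6.06, 5.54 and 6.29 against 7.89, 7.81, 7.56 and 7.54 (1.74 ± 0.18, adjusted p = 0.00357) with a control mean of 7.46, and the ubiquitin hydrolase Uchl1 rose by 1.65 (adjusted p = 0.000865) to 6.52 to 6.83 under a control mean of 8.13. Klhl1, a kelch-like actin-binding protein, rose by 1.38. In the series fit Uchl1 missed the threshold (1.02, adjusted p = 0.0792) and Tubb3 passed it. The neuronal pentraxin Nptx1 went the other way, from 7.71, 7.32 and 7.26 to 5.13, 4.77, 5.71 and 5.78 (-2.08 ± 0.25, adjusted p = 0.00668), below its control mean of 8.25.

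Of 13 contractile and cytoskeletal genes chosen after the values were seen 9 rose and none fell, where 1.38% of all genes rose. Of these 13 genes 10 did not overlap, where 8.77% of all genes lay wholly above. Tnnt2, cardiac troponin T, measured 7.48, 8.03 and 7.98 against 9.64, 9.37, 9.72 and 9.48 (1.72 ± 0.15, adjusted p = 0.00163), near its control mean of 9.85. The adaptor Fblim1 (1.44), the filament-capping Tmod2 (1.68; called in 5 of the 7 fits) and tropomyosin Tpm1 (0.65) were further examples. Sarcomere genes of skeletal muscle did not behave alike, since none of 24 was called (median -0.06, which became 0.86 with 1 call without MEKi replicate 1), and their level spanned 7.17 to 9.80 in MEKi tumors and 7.42 to 8.86 in combination tumors.

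Stress genes of the ATF4 and CHOP axis, 16 chosen after the values were seen, rose in 5 cases, where 1.38% of all genes rose. These were the transcription factors Atf3 (0.75) and Ddit3 (0.77), the regulators Nupr1 (1.27) and Trib3 (1.30) and the mitochondrial enzyme Pck2 (0.90). Atf3 was 6.82, 6.84 and 6.83 in MEKi tumors and 7.41, 7.63, 7.79 and 7.50 in combination tumors, under a control mean of 8.17. Ddit3 was called in none of the 7 fits with 1 array omitted and Trib3 in 3. Of 12 Wnt inhibitors, also chosen after the values were seen, 4 fell, where 2.65% of all genes fell. Wif1, a secreted Wnt antagonist, measured 6.15, 5.20 and 5.54 against 2.33, 2.22, 2.16 and 2.08 (-3.43 ± 0.20, adjusted p = 0.000313), the latter near the control mean of 2.23, and Apcdd1 (-1.33), Nkd2 (-0.96) and Kremen1 (-0.67) fell with it. Wif1 and Kremen1 were called in all 7 fits, Nkd2 in 3 and Apcdd1 in 1 (adjusted p up to 0.111).

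Proliferation lists had no call. The mitosis list had a median of 0.54 over 24 genes, which became 0.08 without MEKi replicate 1, and DNA replication genes had -0.19 over 27, -0.45 without MEKi replicate 1 and 0.09 without MEKi replicate 3. Mki67 measured 8.91, 9.72 and 9.99 against 9.75, 9.95, 9.99 and 9.35 (0.22 ± 0.26). Hypoxia and glycolysis genes were all higher, 18 of 18 (median 0.46), none called, and had a median of 0.12 without MEKi replicate 1. Adipocyte genes had a median of 0.67 over 16, led by Adipoq at 2.74 ± 0.98 (adjusted p = 0.197), with levels of 4.99, 7.59, 8.09 and 9.52 in combination tumors. Of 22 endothelial genes Vwf was called (0.92, adjusted p = 0.0334; 2 of the 7 fits), and nerve (9 genes), red blood cell (5), platelet (7), lysosome (17), cholesterol synthesis (19) and regulatory T cell (10) lists had none. Without MEKi replicate 1 lysosome genes had 4 calls, and without MEKi replicate 2 cholesterol synthesis genes had 2.

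Whether the antibody acted differently with the inhibitor than without it was tested as the difference between combination minus MEKi and CD40 Ab minus control in a fit of all 15 arrays. Of 18193 genes 829 (4.56%) had such a difference, 363 positive (2%) and 466 negative (2.56%), and of 45037 probe sets 1441 (3.2%) did. With tumor number series as a covariate the 1441 became 84, and with muscle, skin and hair levels as covariates 66. The differences given below come from the fit without covariates. The test of this difference shares the combination and MEKi arrays with the comparison above, so the values of each are given side by side. No gene of the MHC class I, MHC class II, interferon gamma or type I interferon lists passed. Ereg fell with inhibitor by 1.67 and had 0.17 without it (difference -1.84, adjusted p = 0.000855), Dusp5 had -0.83 and 0.30 (-1.13, adjusted p = 0.0104), and Lcn2 had -1.68 and 0.57 (-2.25, adjusted p = 0.00646). Of the hair follicle list 13 of 23 genes had a negative difference, of the skin list 8 of 22 and of the fibroblast list 2 of 26, Dpt at -3.29 (adjusted p = 0.00681) and Dcn at -2.12 (adjusted p = 0.0298). The positive side was led by Sema4f (2.48), Spon2 (2.38), the collagen gene Col11a1 (2.27) and Myzap (2.26).

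**Figure D5:**
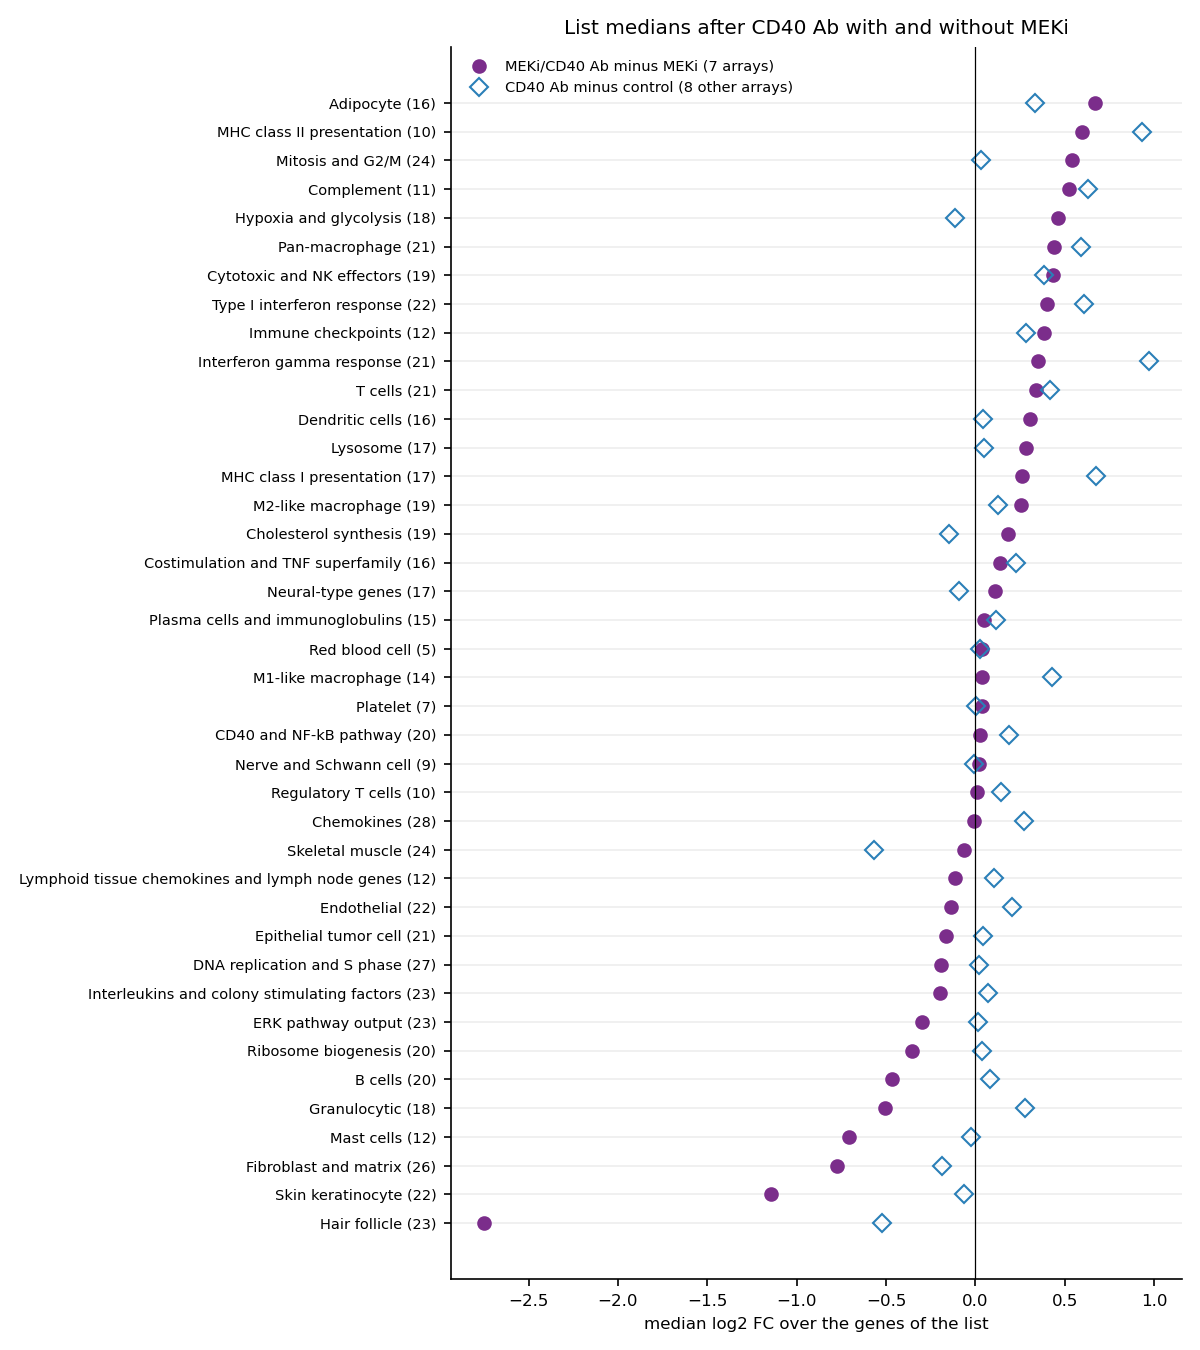
Median log2 FC (x axis) over the genes of each of 40 lists for combination minus MEKi (filled circles) and for CD40 Ab minus control (open diamonds), the number of measured genes in parentheses. For combination minus MEKi the hair follicle median was -2.75, the skin keratinocyte median -1.14 and the fibroblast median -0.78, and MHC class II stood at 0.60 with and 0.93 without the inhibitor.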

How the data were processed

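PDA30364 whole-tumor RNA (200 ng) was hybridized to Affymetrix mouse GeneChip arrays, 1 array per tumor. After quality control the authors summarized each probe set in Chipster, and what they deposited is its log2 signal from robust multi-array averaging (RMA), that is, background correction, quantile normalization and summarization, which equalizes the arrays; the RMA version is not given in the sources used here. No further normalization was applied. The number of arrays limits the precision. Replicates are separately numbered tumors, and p-values measure the spread between them.

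Of 45101 probe sets 64 AFFX controls were removed. GEO's platform annotation gave 34945 of the others 1 symbol, 932 several and 9160 none; unnamed ones stayed in the tests. Combination (4) and MEKi (3) arrays were compared in limma 3.58.1 (R 4.3.3) with empirical Bayes moderation and Benjamini-Hochberg adjustment over 45037 probe sets; the difference between antibody effects was fitted on all 15 arrays. Both were tested on simulated data. A call is an adjusted p under 0.05. SE is the standard error of the log2 FC. A list level is the mean log2 signal of its genes. Named genes were the 10 largest rises and falls among called genes, up to 3 called members per list, 39 genes of interest (3 are not analysed here) and the leading interaction genes; groups said to be chosen after the values were seen lie outside this rule. The members and the 40 lists (677 of 750 distinct genes measured, 38 in more than 1 list) were chosen with earlier results of these data known. Alternatives were other fits, normalizations, filters and thresholds, tumor number series, tissue covariates, a replicate block and leaving out each array. Promoters came from RefSeq; figures were drawn with matplotlib 3.10.9.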

Additional observations from a re-analysis of the deposited data

Results flagged for a closer look

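In 18 of 127 values tested, 1 of the 4 combination tumors lay far from the other 3. Chance gives such a gap in about 1 in 20 groups, and many of these lists and genes move together. Combination replicate 2 stood above its group in immune genes. Its T cell list level was 7.03 against 6.25 to 6.29 in the others, its cytotoxic and NK effector level 6.74, its immune checkpoint level 6.90, its M1-like macrophage level 7.37, its granulocytic level 6.83 and its CD40 and NF-kB pathway level 8.18, and the single genes Cd8a at 7.60, Cd68 at 9.30 and Apol6 at 8.70 stood out in the same tumor. Combination replicate 1 stood above its group in hair and skin genes, with a hair follicle level of 4.73 and signals of 5.33 for Krt25, 6.97 for Krtap8-1, 3.63 for Krtap15, 5.11 for Tchh, 6.31 for Lgals7 and 3.01 for Dsc1. Dusp6 was low in combination replicate 3, at 10.18, and Krtap19-2 was high in combination replicate 4, at 2.88.

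Of the 87 named genes 40 passed limma's interaction test, which compares the antibody contrast with and without inhibitor, in the fit without covariates. Of these, 16 had a positive and 24 a negative value. Over all genes 4.56% passed. MEKi and combination tumors also differed in tumor number series, and with series as a covariate the 1441 interaction probe sets became 84. The named genes include the leading genes of this same test and of combination against MEKi, so their higher share follows from how they were picked. The positive differences, on the log2 scale, were 2.48 for Sema4f, 2.38 for Spon2, 2.27 for Col11a1, 2.26 for Myzap, 2.21 for Stra6, 2.16 for Uchl1, 2.08 for Lmcd1, 2.00 for Tfr2, 1.94 for Adgra1, 1.69 for Slc17a1, 1.44 for Tubb3, 1.28 for Ccl6, 1.22 for Blk, 1.01 for Vwf, 0.87 for Tnfrsf9 and 0.70 for Cd68. Hair and skin genes had negative values of -5.13 for Krtap16-3, -4.09 for Lgals7, -3.96 for Krtap19-3, -3.82 for Krt35, -3.73 for Krtap19-2, -3.61 for Krtap15, -3.44 for Gm10229, -3.0 for Krt5 and -2.72 for Dsc1. Matrix genes (-3.29 for Dpt and -2.12 for Dcn), cochlin (Coch, -2.70) and mast cell genes (-2.46 for Fcer1a and -2.33 for Cma1) were also negative. The other negative values were -2.25 for Lcn2, -2.10 for Ccl20, -1.95 for S100a8, -1.84 for Ereg, -1.77 for Nptx1, -1.13 for Dusp5, -0.88 for Spry4, -0.75 for Rrp12, -0.62 for Polr1b and -0.52 for Nop16.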

How the results depend on the processing

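The 1264 probe sets called for combination against MEKi (457 higher, 807 lower) became 322 (73 and 249) at an adjusted p under 0.01. With at least 2-fold change they became 466 (97 and 369). A fit of all 15 arrays called 3663 (1686 and 1977). The covariate fits also used all 15 arrays, so their counts compare with these 3663. With tumor number series as a covariate 809 (471 lower) were called. With muscle, skin and hair levels as covariates 5 remained past the threshold, 0 higher and 5 lower, and there Krt25 (2.16), Krtap8-1 (1.67), Krtap6-5 (0.46), Gm10229 (0.016), Tchh (1.41) and Dsc1 (0.0066) changed sign. Krt25, Krtap8-1, Tchh and Dsc1 are members of the lists used as covariates, so that fit removes their change by construction and is no test of carried tissue. With 1 array omitted from the fit of combination and MEKi arrays alone the total ran from 431 to 2089. The higher ran from 99 to 839 and the lower from 320 to 1250. The 1441 interaction calls (676 positive, 765 negative) became 321 (134 and 187) at 0.01, 491 (150 and 341) with 2-fold change, 66 (15 and 51) with tissue covariates, 84 (30 and 54) with tumor number series and, with 1 array omitted, 745 to 2072 (339 to 1072 and 404 to 1063).

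Replicate numbers did not pair the tumors, as deviations of same-numbered tumors correlated at -0.14, -0.36 and 0.09; with the replicate number as a block 180 probe sets (30 and 150) and 1171 interaction calls passed.

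Over the named genes 1316 gene and setting combinations kept their side of the threshold. Those called among them kept direction, and those not called stayed within the gene's spread, whatever the sign. A further 253 lost the call, 20 gained it, 23 moved and 6 turned direction. Among list medians 488 stayed within the spread and 32 moved. Outside the hair, skin and muscle lists and the keratin families 251 genes rose and 423 fell, a count added after the data were seen. Dim probe sets have compressed differences, so falls to low signals are least precise.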
